A study of Mus musculus with 12 samples.

Results

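The circadian clock and clock output genes of mouse gastrocnemius, a fast calf muscle, were followed here through 10 genes matched by symbol among the 47643 genes counted. These were Per1, Per2, Per3, Dbp, Tef, Hlf, Nr1d1, Nr1d2, Arntl (also written Bmal1) and Ciart. The 12 libraries came from 6 female C57BL/6J mice aged 11 weeks, 3 labelled as over-expressing Myc, a growth-promoting transcription factor, and 3 labelled as controls. Each animal gave an acutely contracted right leg and an uncontracted left leg, so that there were 4 groups of 3 libraries: contracted legs of Myc animals, uncontracted legs of Myc animals, contracted legs of control animals and uncontracted legs of control animals. Contraction and body side cannot be told apart in this design. The labels name neither the construct or promoter behind Myc, nor the hour of dissection, nor the time since contraction.

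In the mammalian clock, the proteins CLOCK and BMAL1 bind E-box sequences and switch on the Period and Cryptochrome genes, whose products return to shut CLOCK and BMAL1 off. The REV-ERB receptors made from Nr1d1 and Nr1d2 repress Arntl through ROR elements, and the D-box binding factors DBP, TEF and HLF carry the rhythm to output genes. Skeletal muscle has its own such clock, and many of its metabolic genes follow it. Every library is a single time point, so levels are described here and not rhythms.

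Libraries held 1371732 to 1643216 reads, sequenced from the 3' ends of transcripts, and 1 read was worth 0.601 to 0.774 CPM (reads divided by the library's total after TMM, a scaling that corrects for differences in library composition). A gene was tested if it passed a low-count filter, which 6676 genes and 7 of the 10 clock genes did. Per2, Arntl and Ciart had too few reads. Hlf passed the filter only through uncontracted libraries, where it was higher, so its test is not independent of that difference. The muscle genes Acta1, Ckm, Mb, Tnnt3, Myh4, Mylpf and Pvalb together held 97748 to 125712 CPM in contracted legs and 109384 to 133652 CPM in uncontracted legs, and none of the 7 passed the test described with the results. Myc reads went against the labels in some contracted legs: the libraries labelled contracted Myc 1, 2 and 3 held 32, 0 and 2 Myc reads and those labelled contracted control 1, 2 and 3 held 1, 10 and 59, while uncontracted Myc 1, 2 and 3 held 11, 9 and 9 and uncontracted control 1, 2 and 3 held 0, 1 and 0. Contraction was therefore compared mainly over all 6 contracted against all 6 uncontracted legs. The spread, and so the SE and p, of that comparison was still estimated within the 4 labelled groups, and a fit by leg side alone, with no genotype labels, was added after seeing the data. Results are also given without the 4 contracted libraries numbered 2 and 3, called the 4 mismatched libraries here. That leaves contracted Myc 1 and contracted control 1 as the only contracted libraries. An averaged value then rests on these 2, and a value within a genotype on a single contracted library. In whole muscle, fewer cells of a type and less RNA per cell cannot be told apart.

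The sequences just upstream of the start sites show which clock elements some of these genes carry. Windows of 250 bases upstream were read from the RefSeq promoter table (build GRCm38.p6) for 9 of the 10 genes, in 12 windows because some genes have more than 1 start. Searched on both strands were the E-box CACGTG, the D-box TTATGTAA or TTATGCAA, the ROR core TAGGTCA, the cAMP response element TGACGTCA and its core TGACGT, which every full cAMP element also contains. The 3 windows printed were chosen because Per3, the gene with the lowest p below, holds a pair of D-boxes, Per1 holds an E-box and a D-box, and Tef holds an E-box. Each is written 5' to 3' on the gene's own strand, ends at the base before the start site, and has the matches in capitals.
Per3, chr4:151044666-151044915, minus strand, D-boxes: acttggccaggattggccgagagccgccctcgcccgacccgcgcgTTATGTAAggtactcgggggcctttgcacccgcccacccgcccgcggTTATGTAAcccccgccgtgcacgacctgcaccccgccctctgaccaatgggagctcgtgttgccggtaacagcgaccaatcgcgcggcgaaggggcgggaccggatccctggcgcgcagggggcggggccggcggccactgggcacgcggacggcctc
Per1, chr11:69098699-69098948, plus strand, E-box then D-box: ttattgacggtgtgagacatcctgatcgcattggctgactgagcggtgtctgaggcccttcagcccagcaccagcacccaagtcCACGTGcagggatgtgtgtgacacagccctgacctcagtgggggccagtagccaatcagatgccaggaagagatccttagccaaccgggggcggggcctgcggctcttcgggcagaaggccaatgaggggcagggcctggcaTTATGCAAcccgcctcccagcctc
Tef, chr15:81811164-81811413, plus strand, E-box: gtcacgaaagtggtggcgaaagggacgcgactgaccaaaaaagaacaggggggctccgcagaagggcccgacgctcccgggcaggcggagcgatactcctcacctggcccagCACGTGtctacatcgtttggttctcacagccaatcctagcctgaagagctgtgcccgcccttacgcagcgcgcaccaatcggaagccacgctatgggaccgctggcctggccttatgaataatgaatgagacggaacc

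The D-boxes of Per3 began at positions -205 and -158 from the start site, and that of Per1 at -24. D-boxes were in 2 of the 12 windows, where 1.5% of all 32851 windows of this length held one. E-boxes were in 4 of the 12 windows, those of Ciart (3 matches), Per1 (1 of its windows) and Tef (both windows), and in 6.02% of all windows. The Tef window that is not printed lay wholly within annotated exons (250 of 250 bases), as did 159 bases of the Dbp window. The cAMP element was in 1 of the 12 windows, that of Hlf, and in 1.55% of all windows, and its core was in 2 of the 12, of Hlf and Per1, and in 6.47% of all windows. No ROR core was found in these windows (2.23% of all windows hold one). A match describes the letters in the window and is not evidence of binding.

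Contraction was the comparison in which the clock genes differed. Of the 7 tested genes 5 were lower in contracted than in uncontracted legs and 0 were higher: Per3, Dbp, Tef, Nr1d1 and Nr1d2. Across all 6676 genes 1.77% were lower and 5.71% higher by the same rule, an edgeR quasi-likelihood test with a Benjamini-Hochberg adjusted p under 0.05 over all genes tested. The clock genes and every gene list below were chosen with earlier results of these data known. Their shares, set beside those of all genes, are descriptions and not independent support. The median log2 change of the 7 genes was -0.40, or -0.38 without Hlf, where that of all genes tested was -0.00326. With the animal as a block, 3 of the 7 passed (Per3, Dbp and Tef), and without the 4 mismatched libraries 1 did (Per3). With leg side alone, 5 again passed, with edgeR adjusted p of 2.26e-05 for Per3, 0.00182 for Dbp, 0.00885 for Tef, 0.028 for Nr1d1 and 0.0378 for Nr1d2.

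**Figure D1:**
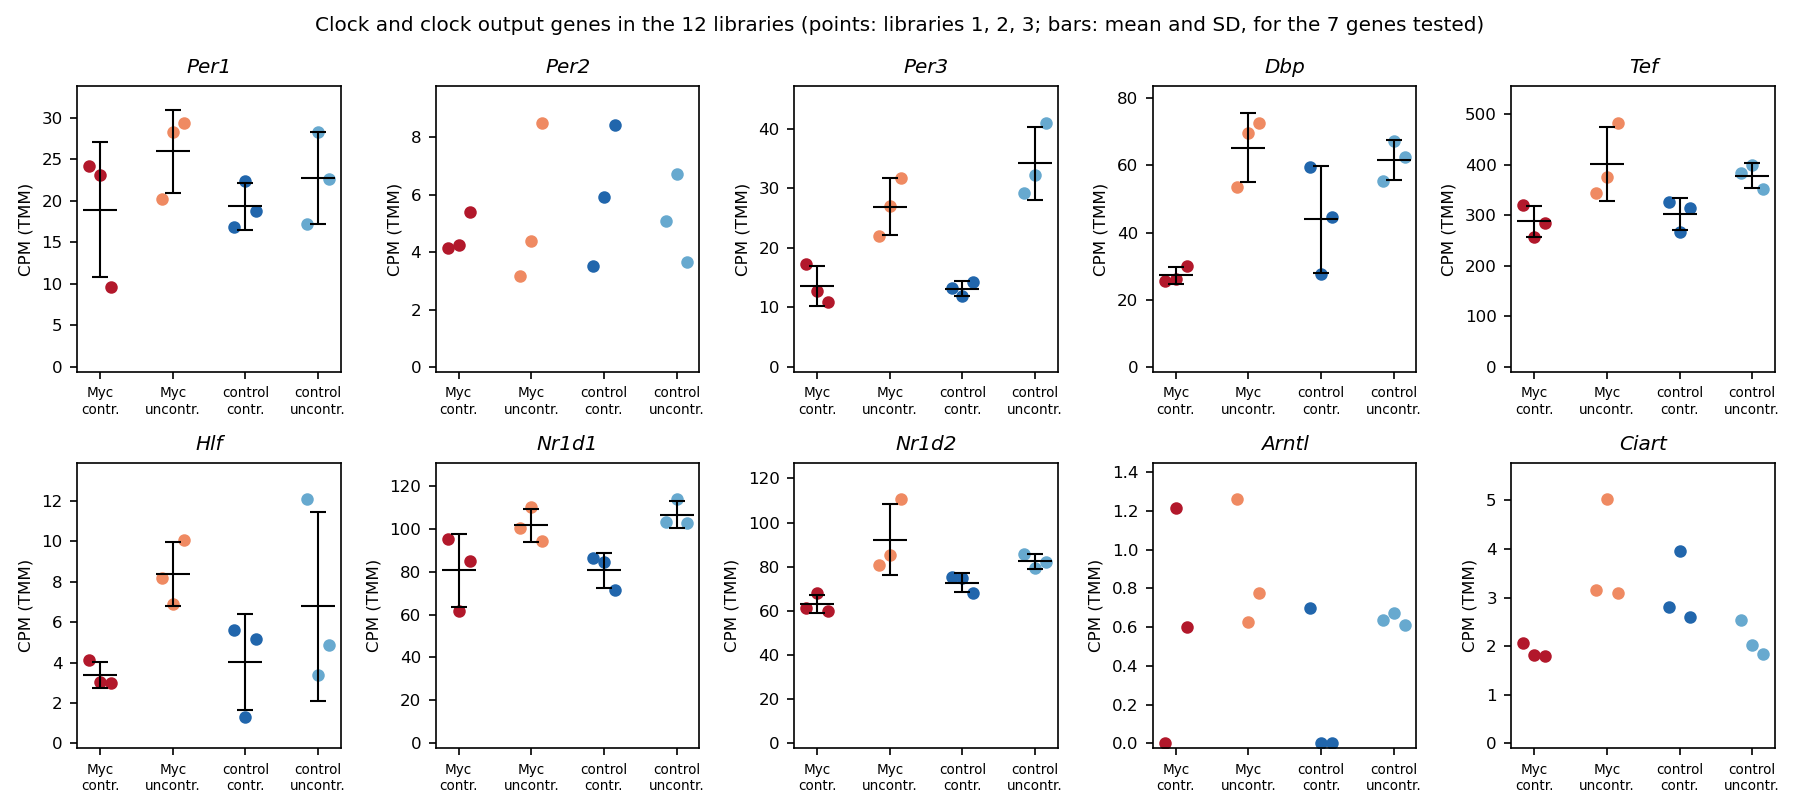
Level of each of the 10 clock genes in every library, in CPM, with 1 panel per gene and, from left to right, contracted and uncontracted legs of Myc animals and contracted and uncontracted legs of control animals. Points are libraries, and bars give the mean and SD of 3 libraries for the 7 tested genes. Per3 shows the clearest gap, with every contracted library at or below 17.2 CPM and every uncontracted library at or above 22.1 CPM.

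Among the Period genes, which encode the clock's own repressors, Per3 was strongly lower in contracted muscle while Per1 and Per2 were not distinguishable. Per3 (chromosome 4, 151003652 to 151044665, minus strand, mm10) had 17.2, 12.7 and 10.8 CPM in contracted legs of Myc animals 1, 2 and 3, against 22.1, 27.0 and 31.7 CPM in their uncontracted legs. In control animals 1, 2 and 3 it had 13.3, 11.8 and 14.3 CPM in contracted legs, against 29.3, 32.3 and 41.0 CPM in uncontracted legs. The highest contracted leg lay below the lowest uncontracted leg, and both of these were legs of Myc animal 1. By group, Per3 averaged 13.6 ± 3.30 CPM in contracted Myc, 13.1 ± 1.21 in contracted control, 26.9 ± 4.83 in uncontracted Myc and 34.2 ± 6.09 in uncontracted control legs (SD, n = 3 each). Groups of the same leg side overlapped, so the order within a leg side is not distinguishable. Over both genotypes Per3 averaged 13.4 ± 2.24 CPM in contracted and 30.6 ± 6.33 CPM in uncontracted legs (SD, n = 6 each). Its log2 change was -1.18 ± 0.17 (SE), or 2.27-fold lower, with an edgeR adjusted p of 4.51e-05.

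Per3 passed the test in all 20 alternatives tried for this comparison, with log2 changes of -1.28 to -0.99. Without the 4 mismatched libraries, Per3 was still lower (-0.99, edgeR adjusted p = 0.0401) and was the 1 clock gene of the 7 to pass.

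Per1 (chromosome 11, 69095217 to 69109960, plus strand), the Period gene that responds most acutely to light and hormones, had 24.1, 23.0 and 9.62 CPM in contracted legs of Myc animals 1, 2 and 3, against 20.2, 28.3 and 29.4 CPM in uncontracted legs. In control animals it had 16.8, 22.4 and 18.8 CPM in contracted legs and 17.2, 28.3 and 22.6 CPM in uncontracted legs. The ranges overlapped, with contracted Myc 3 the lowest of the 12 libraries, and the log2 change of -0.34 ± 0.20 did not pass (edgeR adjusted p = 0.362). Per2 (chromosome 1, 91415982 to 91459324, minus strand), a core repressor, had 6, 7 and 9 reads in contracted and 5, 7 and 11 reads in uncontracted legs of Myc animals. In control animals it had 5, 9 and 13 reads in contracted and 8, 10 and 6 reads in uncontracted legs. Summed, that is 49 reads in contracted against 47 in uncontracted legs, or 5.30 CPM (95% exact Poisson interval 3.92 to 7.0) against 5.13 CPM (3.77 to 6.82). A difference in Per2 was not detectable at this depth, and these intervals cover counting error only.

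The D-box binding factors are the clock's output arm, and both abundant members were lower in contracted legs. Dbp (chromosome 7, 45705088 to 45710203, plus strand), the member with the largest daily swing in many tissues, had 25.5, 26.1 and 30.1 CPM in contracted legs of Myc animals 1, 2 and 3, against 53.6, 69.7 and 72.7 CPM in their uncontracted legs. Control animals 1, 2 and 3 had 59.5, 27.6 and 44.7 CPM in contracted and 55.4, 67.3 and 62.4 CPM in uncontracted legs. Contracted control 1 lay inside the uncontracted range, and the other 5 contracted legs lay below it. Over both genotypes Dbp averaged 35.6 ± 13.7 CPM in contracted and 63.5 ± 7.80 CPM in uncontracted legs (SD, n = 6 each), a log2 change of -0.87 ± 0.15 or 1.83-fold lower (edgeR adjusted p = 0.000463). It passed in 19 of 20 alternatives and missed the threshold without the 4 mismatched libraries (log2 change -0.70, adjusted p = 0.0673).

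Dbp shares 539 exon bases, reaching to its own 3' end, with Sphk2 on the opposite strand, and whether reads were counted by strand is not given in the sources used here, so reads of the overlapping stretch cannot be assigned with certainty. Sphk2, a sphingosine kinase gene, had a log2 change of -0.14 ± 0.17 with contraction (edgeR adjusted p = 0.715).

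Tef (chromosome 15, 81802421 to 81826863, plus strand), a close relative of Dbp, had 320, 257 and 285 CPM in contracted and 343, 375 and 483 CPM in uncontracted legs of Myc animals 1, 2 and 3. In control animals it had 327, 267 and 314 CPM in contracted legs, against 382, 400 and 351 CPM in uncontracted legs. All 6 contracted legs were below all 6 uncontracted legs, although the gap between 327 and 343 CPM was small. The means were 295 ± 29.4 CPM in contracted and 389 ± 50.5 CPM in uncontracted legs (SD, n = 6 each), and Tef fell by 0.40 ± 0.10 on the log2 scale, or 1.32-fold (edgeR adjusted p = 0.0127). The call ended without uncontracted Myc 3, the highest library (-0.32, adjusted p = 0.0542), and without the 4 mismatched libraries (-0.26, adjusted p = 0.701). Tef passed in the other 18 of the 20 alternatives.

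Hlf (chromosome 11, 90336536 to 90390895, minus strand), the third of these factors, was scarce. It had 6, 5 and 5 reads in contracted and 13, 11 and 13 reads in uncontracted legs of Myc animals, and 8, 2 and 8 reads in contracted and 19, 5 and 8 reads in uncontracted legs of control animals. The groups separated in Myc animals and overlapped in control animals. Pooled, Hlf had 3.67 CPM (95% exact Poisson interval 2.55 to 5.14) in contracted against 7.53 CPM (5.86 to 9.53) in uncontracted legs. The log2 change was -1.02 ± 0.36 and did not pass (edgeR adjusted p = 0.0937). Hlf passed in 2 of the 19 alternatives that tested it, with no low-count filter (adjusted p = 0.0438) and without uncontracted control 2 (-1.19, adjusted p = 0.0499). Over the 19 the log2 change ran from -1.19 to -0.63 and the adjusted p up to 0.89.

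Both REV-ERB genes, which encode repressors of Arntl that bind haem, were lower in contracted legs by about the same small amount. Nr1d1 (chromosome 11, 98767932 to 98775333, minus strand) had 95.2, 61.9 and 84.8 CPM in contracted and 100, 110 and 94.4 CPM in uncontracted legs of Myc animals 1, 2 and 3. In control animals it had 86.1, 84.2 and 71.3 CPM in contracted and 103, 114 and 103 CPM in uncontracted legs. The groups overlapped only through contracted Myc 1 and uncontracted Myc 3. The means of Nr1d1 were 80.6 ± 11.9 CPM in contracted and 104 ± 6.90 CPM in uncontracted legs (SD, n = 6 each), a log2 change of -0.37 ± 0.11 or 1.29-fold lower (edgeR adjusted p = 0.0396).

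Nr1d2 (chromosome 14, 18204054 to 18239127, minus strand) had 61.4, 67.9 and 60.1 CPM in contracted legs of Myc animals 1, 2 and 3, against 80.7, 85.4 and 111 CPM in uncontracted legs. Its levels in control animals were 75.6, 75.0 and 68.0 CPM in contracted and 85.9, 79.4 and 82.0 CPM in uncontracted legs. No contracted leg reached the lowest uncontracted leg. Nr1d2 averaged 68.0 ± 6.52 CPM in contracted and 87.3 ± 11.7 CPM in uncontracted legs (SD, n = 6 each), with a log2 change of -0.36 ± 0.10 or 1.28-fold lower (edgeR adjusted p = 0.0349).

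Both REV-ERB calls lie close to the threshold. Nr1d1 passed in 7 and Nr1d2 in 8 of 20 alternatives, always with the same direction (log2 changes -0.44 to -0.20 for Nr1d1 and -0.42 to -0.29 for Nr1d2). With the animal as a block neither passed (edgeR adjusted p = 0.0625 for Nr1d1 and 0.0635 for Nr1d2), and DESeq2 gave adjusted p of 0.0766 and 0.0902. Leaving out 1 library at a time, Nr1d1 no longer passed without contracted Myc 2 (-0.29) or 3 (-0.39), uncontracted Myc 2 (-0.34) or 3 (-0.40), contracted control 2 (-0.39) or 3 (-0.33), or any of the uncontracted control libraries (-0.39 to -0.36), with edgeR adjusted p of 0.052 to 0.136. Nr1d2 no longer passed without contracted Myc 2 (-0.39) or 3 (-0.34), uncontracted Myc 3 (-0.29), contracted control 2 (-0.37) or 3 (-0.33), or uncontracted control 1 (-0.35) or 3 (-0.36), with edgeR adjusted p of 0.0501 to 0.12. Without the 4 mismatched libraries the values were -0.20 for Nr1d1 (adjusted p = 0.87) and -0.35 for Nr1d2 (adjusted p = 0.611).

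Nr1d1 shares 263 exon bases, starting 225 bases from its 3' end, with the thyroid hormone receptor gene Thra on the opposite strand, and reads there cannot be told apart without a known strand setting. Thra had a log2 change of -0.25 ± 0.11 with contraction and did not pass (edgeR adjusted p = 0.208).

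Arntl and Ciart, the activator and a repressor that binds it, were near or below the limit of detection. Arntl (chromosome 7, 113207465 to 113314126, plus strand) had 0, 2 and 1 reads in contracted and 2, 1 and 1 in uncontracted legs of Myc animals, and 1, 0 and 0 in contracted and 1, 1 and 1 in uncontracted legs of control animals. Its 4 reads in contracted against 7 in uncontracted legs equal 0.432 CPM (95% exact Poisson interval 0.118 to 1.11) against 0.764 CPM (0.307 to 1.57). Ciart (chromosome 3, 95878503 to 95882251, minus strand), also known as Chrono, had 3, 3 and 3 reads in contracted and 5, 8 and 4 in uncontracted legs of Myc animals, and 4, 6 and 4 in contracted and 4, 3 and 3 in uncontracted legs of control animals. Summed, Ciart had 23 reads in contracted and 27 in uncontracted legs, or 2.49 CPM (1.58 to 3.73) against 2.95 CPM (1.94 to 4.29). Neither gene showed a difference that this depth could detect, and the order of the group sums of Ciart was opposite in Myc and in control animals.

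**Figure D2:**
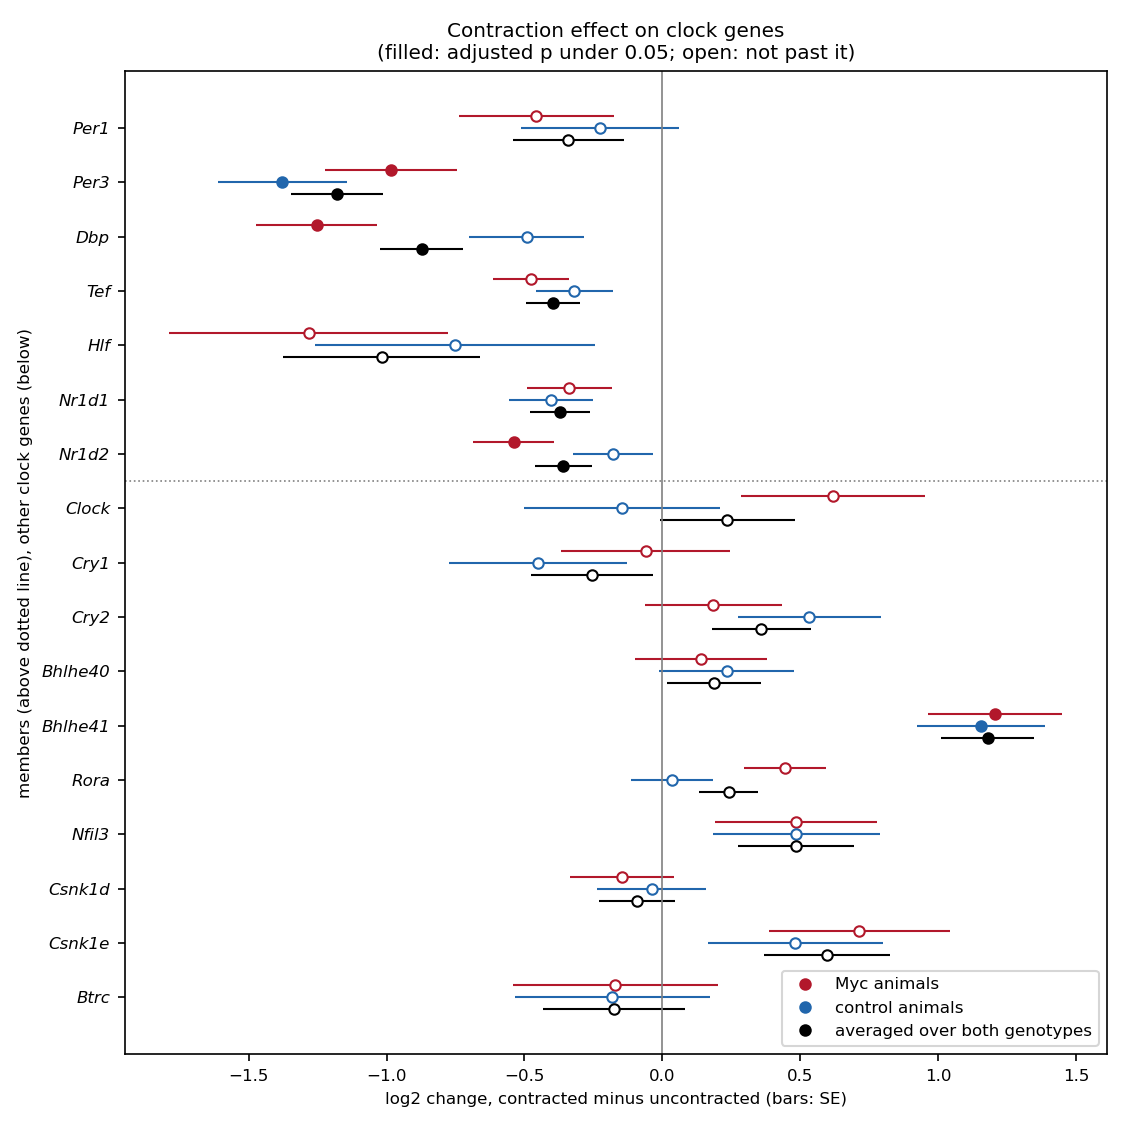
Log2 change with contraction in Myc animals (red), in control animals (blue) and averaged over both genotypes (black), with SE bars, for the 7 tested clock genes (above the dotted line) and 10 other clock genes (below it); filled points passed at an edgeR adjusted p under 0.05. All averaged points above the line lie left of 0, from -1.18 for Per3 to -0.34 for Per1, and Bhlhe41, at 1.18 when averaged, is the 1 gene below the line with filled points.

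Within single animals, as labelled, the contracted leg was lower than the uncontracted leg in 6 of 6 animals for Per3, Tef, Nr1d1 and Nr1d2. The difference in log2 CPM ran from -1.45 to -0.33 for Per3, from -0.76 to -0.10 for Tef, from -0.82 to -0.07 for Nr1d1 and from -0.87 to -0.08 for Nr1d2. For the other tested genes 5 of 6 animals were lower, and the exception was a different animal each time: Myc 1 for Per1 (0.25), control 1 for Dbp (0.10) and control 3 for Hlf (0.07). Dbp was otherwise lower by -1.37 to -0.47. Of the 7 tested genes 3 (Per3, Tef and Nr1d2) had all contracted libraries below all uncontracted ones, where 0.869% of all genes tested did. Leaving out Hlf, which was higher in the legs that brought it past the filter, 4 of 6 (Per3, Dbp, Tef and Nr1d2) were so separated within Myc animals and 4 of 6 (Per3, Tef, Nr1d1 and Nr1d2) within control animals, against 9.2% of all genes in Myc animals and 7.12% in control animals.

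**Figure D3:**
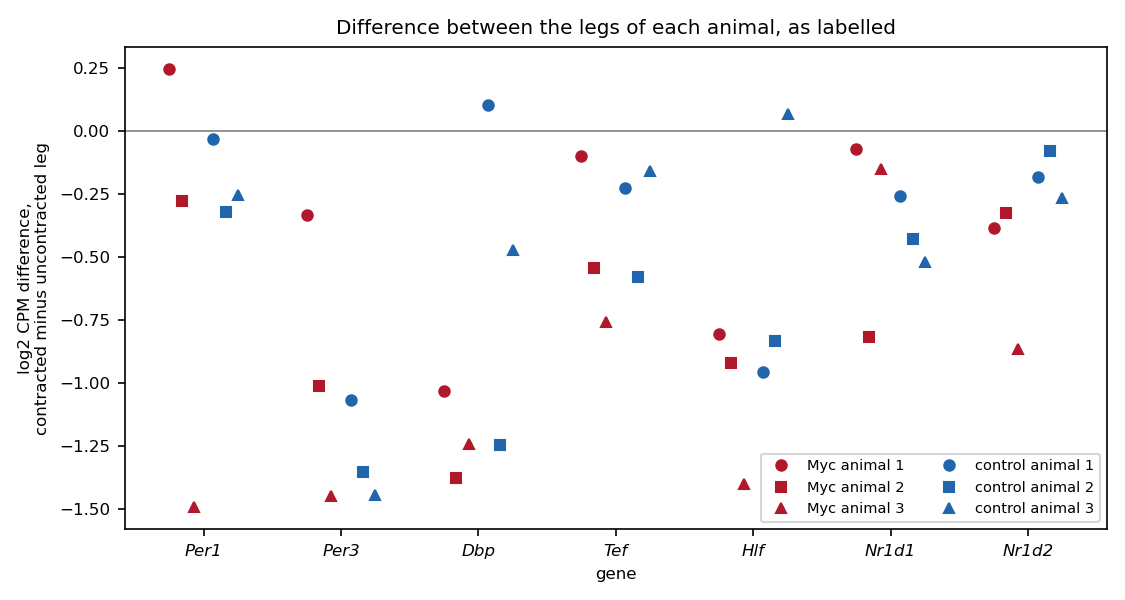
Difference in log2 CPM between the contracted and the uncontracted leg of each animal, as labelled, for the 7 tested clock genes. Points are animals, Myc animals left of control animals, and the line at 0 marks no difference. Per3, Tef, Nr1d1 and Nr1d2 lie below 0 in all 6 animals, and Dbp in control animal 1 lies at 0.10.

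The response of each genotype was compared next, as labelled. In Myc animals 3 of 7 tested genes were lower and 0 higher, against 0.449% of all genes lower and 3.45% higher: Dbp (-1.25 ± 0.22, edgeR adjusted p = 0.00084), Per3 (-0.98 ± 0.24, adjusted p = 0.0191) and Nr1d2 (-0.54 ± 0.15, adjusted p = 0.0393). Tef (-0.48 ± 0.14, adjusted p = 0.0598), Nr1d1 (-0.34 ± 0.15), Per1 (-0.46 ± 0.28) and Hlf (-1.28 ± 0.50) did not pass. Dbp passed in all 20 alternatives for this comparison, from -1.41 to -1.17. Without the 4 mismatched libraries, with contracted Myc 1 as the only contracted Myc library, it was -1.335. Per3 ceased to pass without contracted Myc 2 (-0.94) or 3 (-0.84), without uncontracted Myc 2 (-0.98) or 3 (-0.86), in DESeq2 (adjusted p = 0.0576) and without the 4 mismatched libraries (-0.62, adjusted p = 0.902). Nr1d2 passed in 8 of 20 alternatives. It ceased to pass with the animal as a block (-0.54, adjusted p = 0.073) and without contracted Myc 1 (-0.52), 2 (-0.60) or 3 (-0.51), uncontracted Myc 2 (-0.59) or 3 (-0.39), or contracted control 2 (-0.54). Tef did pass without contracted Myc 1 (-0.56), uncontracted Myc 1 (-0.60) or contracted control 1 (-0.50).

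In control animals 1 of 7 was lower and 0 higher, against 0.419% of all genes lower and 2.38% higher. That gene was Per3, at -1.38 ± 0.23 (edgeR adjusted p = 0.000858), which passed in 19 of 20 alternatives and had a change of -1.37 (adjusted p = 0.0767) without the 4 mismatched libraries. Dbp had a log2 change of -0.49 ± 0.21 (adjusted p = 0.297), which was -0.78 and passed (adjusted p = 0.0387) without contracted control 1. Its change was -0.06 without the 4 mismatched libraries, where contracted control 1 is the only contracted control library. Tef (-0.32 ± 0.14), Nr1d1 (-0.40 ± 0.15), Nr1d2 (-0.18 ± 0.15), Per1 (-0.23 ± 0.29) and Hlf (-0.75 ± 0.51) did not pass. The Hlf value rests on single libraries, as it was -0.06 without uncontracted control 1, -0.33 without contracted control 2 and -1.07 without uncontracted control 2.

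Whether the response differed between genotypes was tested as an interaction, and none of the 7 clock genes passed. In edgeR 0 of 6676 genes did, with 331 (4.96%) at an unadjusted p under 0.05, and DESeq2 also called 0 genes. Dbp had the largest of the 7 differences, its log2 change in Myc animals minus that in control animals being -0.76 ± 0.30 (unadjusted p = 0.02, edgeR adjusted p = 0.918). That of Nr1d2 was -0.36 ± 0.21 (adjusted p = 0.967) and that of Per3 was 0.39 ± 0.34 (adjusted p = 0.97, 95% interval -0.31 to 1.10). The Dbp difference was -1.28 without the 4 mismatched libraries, where each genotype keeps a single contracted library.

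Myc over-expression itself moved no clock gene past the threshold. In uncontracted legs, where Myc reads follow the labels, 0 of 7 clock genes and 0 of 6676 genes passed in edgeR, with 421 (6.31%) at an unadjusted p under 0.05, and DESeq2 called 1 gene. The log2 differences between Myc and control animals ran from -0.36 ± 0.21 for Per3 (95% interval -0.79 to 0.08) to 0.28 ± 0.44 for Hlf (-0.64 to 1.21). For Dbp it was 0.08 ± 0.20 (-0.34 to 0.49), for Tef 0.08 ± 0.14 (-0.20 to 0.37), for Nr1d1 -0.07 ± 0.15 (-0.38 to 0.25) and for Nr1d2 0.16 ± 0.14 (-0.14 to 0.45). A p above the threshold does not show that the genotypes were alike, as these intervals show.

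In contracted legs, as labelled, 0 of 7 clock genes and 0 of 6676 genes passed in edgeR (205, or 3.07%, at an unadjusted p under 0.05), and DESeq2 called 0. Dbp differed by -0.68 ± 0.23 between Myc and control animals (unadjusted p = 0.00685, adjusted p = 0.999), with 27.2 ± 2.48 CPM in contracted Myc and 43.9 ± 15.9 CPM in contracted control legs (SD, n = 3 each). The value was -0.42 without contracted control 1, the highest of the 6. Without the 4 mismatched libraries it was -1.20, which compares contracted Myc 1 with contracted control 1 alone. Nr1d2 had 63.2 ± 4.18 CPM in contracted Myc and 72.9 ± 4.22 CPM in contracted control legs (SD, n = 3 each). It was the 1 clock gene of the 7 whose contracted libraries did not overlap between the genotype labels (67.9 CPM at most in contracted Myc, 68.0 CPM at least in contracted control), as was so for 3.68% of all genes in that direction, and its log2 difference of -0.21 ± 0.15 did not pass.

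Co-variation between the 7 tested genes was measured separately in each leg side, over 6 animals, as Pearson's r and Spearman's rho of log2 CPM with exact 2-sided permutation tests. Of the 21 pairs in contracted legs 13 had a positive r, with a median of 0.0361, and of the 21 pairs in uncontracted legs 15 did, with a median of 0.192. After Benjamini-Hochberg adjustment over the 21 pairs 0 passed on either side (smallest adjusted p = 0.733 in contracted and 0.233 in uncontracted legs). With 6 animals the smallest p the exact test of rho can give is 0.00278, too large for a lone pair to pass after this adjustment. The test of r can give a smaller p, but only the most extreme orders of the animals would pass. That 0 pairs passed therefore does not show that these genes varied independently.

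Tef and Hlf had the highest r in contracted legs, 0.806 (exact permutation p = 0.0403, adjusted p = 0.733) with a rho of 0.771 (exact p = 0.103, adjusted p = 0.715), and r was 0.883 without the 2 libraries farthest from the median of Tef. Per1 and Dbp had the highest r in uncontracted legs, 0.938 (exact permutation p = 0.0111, adjusted p = 0.233) with a rho of 0.886 (exact p = 0.0333, adjusted p = 0.7), and r was 0.929 without the 2 libraries farthest from the median of Per1. In contracted legs the same pair gave an r of -0.250 (exact permutation p = 0.639) and a rho of -0.829 (exact p = 0.0583, adjusted p = 0.715). The difference between leg sides was not tested. The REV-ERB genes Nr1d1 and Nr1d2 had an r of -0.709 in uncontracted legs (exact permutation p = 0.117) with a rho of -0.486, which was 0.684 without the 2 farthest libraries and -0.15 without uncontracted Myc 3, so it rests on those libraries. Tef and Nr1d2 likewise had an r of 0.872 in uncontracted legs (exact permutation p = 0.0639) with a rho of 0.429, and -0.222 without the 2 farthest libraries.

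**Figure D4:**
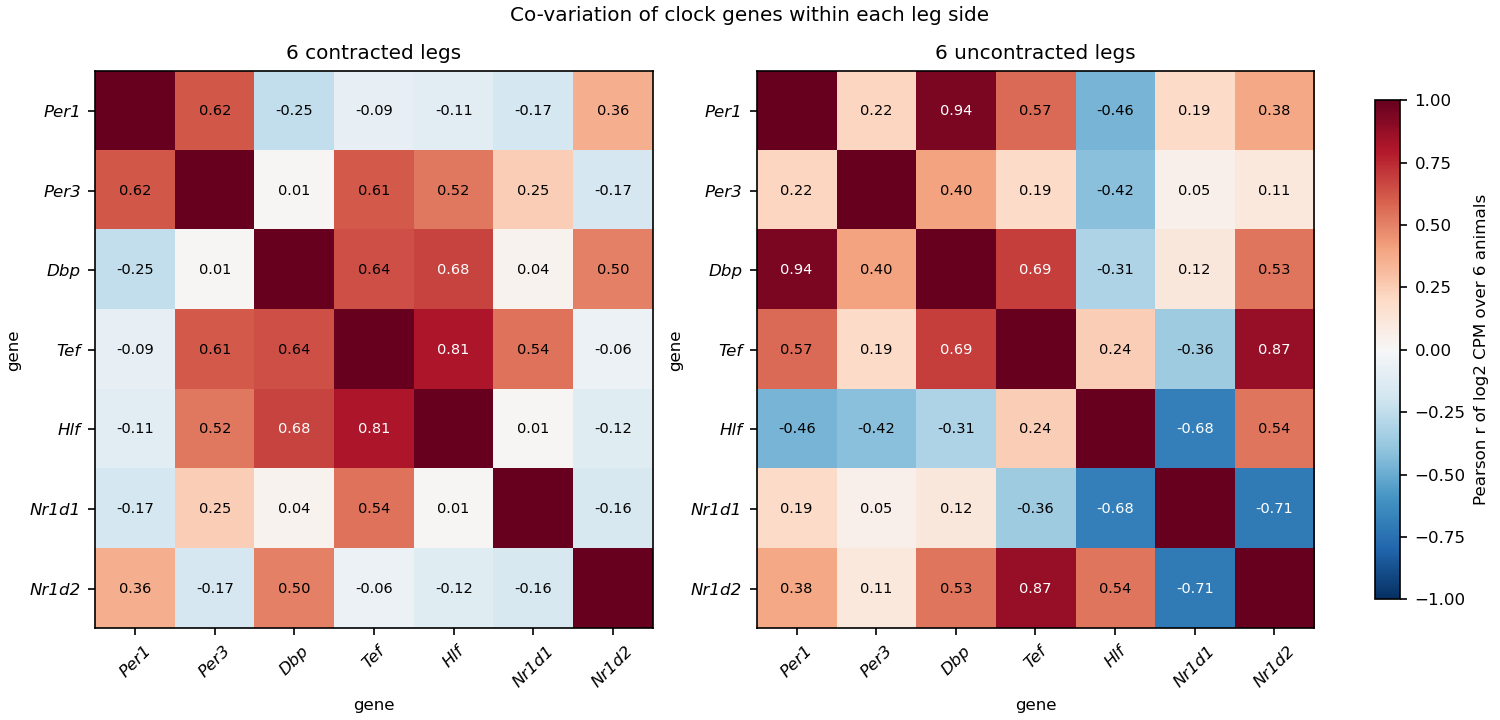
Pearson's r of log2 CPM over 6 animals for every pair of the 7 tested clock genes, in contracted legs (left) and uncontracted legs (right). The 2 highest values are 0.938 for Per1 and Dbp in uncontracted legs and 0.872 for Tef and Nr1d2 in uncontracted legs, and no pair passed after adjustment.

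Over all 12 libraries, after taking away each group's mean, 16 of the 21 pairs had a positive r of deviations, with a median of 0.182. The highest were Per1 with Per3 (0.609), Dbp with Tef (0.593) and Per3 with Tef (0.536), and the lowest was Nr1d1 with Nr1d2 (-0.348). These are descriptions with no test, since legs of an animal are not independent and pairs share library depth. Within leg sides, leaving out the 2 farthest libraries moved the r of Per1 with Per3 from 0.621 to 0.179 (contracted) and from 0.218 to -0.843 (uncontracted). That of Dbp with Tef moved from 0.643 to -0.187 (contracted) and from 0.69 to 0.838 (uncontracted). That of Per3 with Tef moved from 0.614 to 0.733 (contracted) and from 0.192 to 0.641 (uncontracted).

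Other parts of the clock, taken as a list of 14 genes, were examined in the same comparison. Of these 14 further clock genes 10 were tested, with a median log2 change of 0.24. Where 5.71% of all genes tested rose and 1.77% fell, 1 of these 10 rose, 0 fell and 9 did not pass. The gene that rose was Bhlhe41, which encodes DEC2, a repressor that competes at E-boxes. It had 20.01, 35.8 and 30.7 CPM in contracted and 12.6, 11.9 and 13.2 CPM in uncontracted legs of Myc animals 1, 2 and 3, and 26.6, 36.2 and 36.9 CPM in contracted and 14.6, 15.5 and 14.7 CPM in uncontracted legs of control animals. Every contracted leg was above every uncontracted leg (2.95% of all genes tested had such a gap upwards). Bhlhe41 rose by 1.18 ± 0.17 on the log2 scale (edgeR adjusted p = 4.99e-05), by 1.21 ± 0.24 in Myc animals (adjusted p = 0.00392) and by 1.154 ± 0.23 in control animals (adjusted p = 0.00499). Without the 4 mismatched libraries its averaged change was 0.75 and did not pass (adjusted p = 0.148), nor did its change of 0.69 in Myc or 0.82 in control animals.

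Clock, the partner of BMAL1, had a log2 change of 0.24, and the Cryptochrome repressor genes Cry1 and Cry2 had -0.26 and 0.36. Rora, whose product acts against the REV-ERBs at ROR elements, had 0.24, and Nfil3, a repressor at D-boxes, had 0.48. The kinase genes Csnk1d and Csnk1e, whose products mark PER proteins for destruction, had -0.09 and 0.60, and the F-box gene Btrc had -0.18. None of these, nor Bhlhe40 at 0.19, passed the edgeR test. Npas2 had 0 reads, Rorb 2, Fbxl21 1 and Timeless 12 over the 12 libraries, so they were not tested.

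Among 10 muscle genes known to follow the clock, 8 were tested, with a median log2 change of 0.17. This list was chosen with earlier results of these data known, so its shares are not independent of them. Where 5.71% of all genes tested rose and 1.77% fell, 3 of these 8 rose, 3 fell and 2 did not pass. Those that fell were Ucp3, a mitochondrial carrier (-0.87 ± 0.20, edgeR adjusted p = 0.00682), Tcap, the titin cap (-0.41 ± 0.09, adjusted p = 0.00456), and Usp2, a deubiquitinase that acts on clock proteins (-0.36 ± 0.11, adjusted p = 0.0488). Usp2 averaged 381 ± 84.0 CPM in contracted and 488 ± 50.9 CPM in uncontracted legs (SD, n = 6 each). It passed in 9 of 20 alternatives. Usp2 did not pass with library totals alone (-0.34, edgeR adjusted p = 0.14) or in DESeq2 (-0.37, adjusted p = 0.0502). Nor did it with leg side alone (-0.36, edgeR adjusted p = 0.0672) or with the animal as a block (-0.37, edgeR adjusted p = 0.0604). The call also ended without contracted Myc 2 (-0.38) or 3 (-0.36), uncontracted Myc 1 (-0.35) or 2 (-0.35), contracted control 1 (-0.28) or uncontracted control 1 (-0.35) or 3 (-0.34). Without the 4 mismatched libraries the change of Usp2 was -0.62. Those that rose were the myogenic factor gene Myod1 (2.78 ± 0.26, adjusted p = 1.44e-07), the tetraspanin gene Tspan4 (0.97 ± 0.19, adjusted p = 0.00212) and Por, an electron donor of microsomal enzymes (0.65 ± 0.17, adjusted p = 0.023). Myod1 passed the low-count filter only through contracted libraries, where it was higher, so its test is not independent of that difference. Por did not pass without contracted Myc 2 (0.60) or 3 (0.58), uncontracted Myc 1 (0.60) or 2 (0.65), contracted control 3 (0.60) or uncontracted control 2 (0.51). Without the 4 mismatched libraries, Por (0.41), Tspan4 (0.60) and Tcap (-0.41, adjusted p = 0.0825) did not pass.

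Markers of other cells moved with contraction as well, where 5.71% of all genes tested were higher and 1.77% lower. The 4 haemoglobin genes of erythrocytes, all higher, summed to 397 to 991 CPM in contracted and 307 to 456 CPM in uncontracted legs. Of 4 neutrophil markers the 2 tested were higher, with sums of 4.85 to 67.4 CPM in contracted and 0 to 3.67 CPM in uncontracted legs and Csf3r at 0 reads throughout. Those 2 passed the low-count filter only through contracted libraries, so their tests are not independent of that difference. Smooth muscle markers summed to 54.1 to 84.2 CPM in contracted and 84.8 to 113 CPM in uncontracted legs, with 1 of 2 tested lower. Of 5 tested macrophage markers 1 was higher and 2 lower (105 to 152 CPM in contracted, 116 to 198 CPM in uncontracted legs). None of 5 endothelial, 4 fibroblast, 3 adipocyte or 4 slow-fibre markers tested passed. The part of these cells in the clock gene differences was not tested.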

How the data were processed

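RNA was extracted with Trizol and libraries were made with a QuantSeq 3' kit, per the labels' protocols. The authors deposited 1 table of whole-number counts per gene and applied no scaling to it. The submitters' processing notes list build mm10 and the tools HTSeq 0.6.0, STAR 2.5.2a, SAMtools and FastQC 0.11.5, while trimming, annotation release and strand setting are not given in the sources used here. Of 47643 identifiers 47224 had a symbol. Groups, animal numbers and leg side come from the titles, and nothing states separate litters or batches.

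Counts were tested in R 4.3.3 with the quasi-likelihood F test of edgeR 4.0.16, 2-sided, with 4 group means over 12 libraries, after TMM scaling and filterByExpr (minimum count 10). The 6 comparisons were contraction averaged over both genotypes and in each, Myc in each leg side, and the interaction. The threshold was an adjusted p of 0.05 by the Benjamini-Hochberg method over 6676 genes. Each SE was derived from the log2 change and its F statistic and so restates the test. CPM values were computed here, and log2 CPM used a prior count of 2. Poisson intervals are exact at 95% and, like all intervals on reads without molecular identifiers, cover counting error only. Correlations, permutation tests and motif searches used Python 3.11.15 and SciPy 1.17.1. Coordinates of genes are from the mm10 annotation.

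Alternatives were RLE scaling or library totals alone, DESeq2 1.42.0, dropping the low-count filter or asking for 20 reads in 3 libraries, fitting the compared groups alone, leaving out each library, leaving out the 4 mismatched libraries, and the animal as a fixed block. A fit of contraction by leg side alone was added after seeing the data. The titles give legs of the same genotype and number to 1 animal, and after subtraction of the group means the paired legs correlated at -0.122 to 0.112 in the 6 animals. The edgeR steps were tested on simulated counts of 6487 genes for averaged contraction. They recovered 43.3% of 1.5-fold, 74.6% of 2-fold and 92.4% of 4-fold changes, with 8 false calls. The clock genes and all gene lists were chosen with earlier results of these data known. Named beside the 10 clock genes are list genes that passed the averaged contraction test, up to 6 a list by smallest p, the remaining tested clock genes, genes sharing exons with them, and the 5 genes most like Dbp. The same likeness was not computed for Arntl, which had 0 to 2 reads per library. Some further clock genes are not reported here.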

Additional observations from a re-analysis of the deposited data

How the results depend on the processing

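Every change of the 7 tested clock genes with averaged contraction kept its direction in all alternatives run, and the calls moved. Of the 7, 5 passed as reported, 3 with library totals alone, 3 in DESeq2, 3 with the animal as a replicate block, 1 without the 4 mismatched libraries, 5 with leg side alone, and 2 to 5 with 1 library left out. In Myc animals 3 passed as reported, 1 in DESeq2, 1 without the 4 mismatched libraries and 1 to 4 with 1 library left out. In control animals 1 passed as reported, 0 without the 4 mismatched libraries and 1 to 2 with 1 library left out. Over all genes, the count without the 4 mismatched libraries was 107 for averaged contraction (499 as reported), 59 in Myc animals (260) and 67 in control animals (187). Without a low-count filter it was 433 in Myc and 305 in control animals, 24 for Myc in uncontracted legs, 5 for Myc in contracted legs and 18 for the interaction, each of the last 3 against 0 as reported. Myc in uncontracted legs gave 1 gene in DESeq2, 6 without the 4 mismatched libraries and 2 with the compared groups alone. With 1 library left out the counts were 349 to 722 for averaged contraction, 147 to 517 in Myc animals (517 without contracted Myc 1, 152 and 147 without contracted Myc 2 and 3, 151 and 173 without uncontracted Myc 2 and 3), 116 to 313 in control animals (313 and 116 without contracted control 1 and 3), 0 to 2 for Myc in uncontracted legs and 0 to 4 for the interaction. For the Myc comparisons and the interaction, single-gene values were followed through the alternatives for Per3 and Dbp alone. Among these, signs turned for 2 values that did not pass. The Myc difference of Dbp in uncontracted legs (0.08 as reported) was -0.0171 without uncontracted Myc 3 and -0.00594 without uncontracted control 1 (range -0.0171 to 0.21). That of Per3 in contracted legs (0.04) was -0.16 without contracted Myc 1 and -0.0324 without contracted control 2 (range -0.16 to 0.18). Sign changes of the other tested clock genes in these comparisons were not examined. The replicate block changed no other clock gene's call in these comparisons beyond those given with the results. For co-variation 0 pairs passed with RLE scaling, with a prior count of 0.5 or with any 1 library left out. With a library left out, the exact test has too few orders of the animals for a lone pair to pass. The 0 there is therefore no evidence that the result is stable. The cause of the shifts in calls and signs was not tested, and leaving libraries out also entails a loss of samples. Depth limits Per2, Hlf, Arntl and Ciart, whose libraries held 0 to 19 reads each.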

Other observations

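Genes that answer to signals known to reach the clock changed in both directions with contraction. Of 11 cAMP- and calcium-driven immediate early genes 8 were tested, of which 7 rose and 0 fell in edgeR (median log2 change 3.51). Over all genes tested 5.71% rose and 1.77% fell. Listed genes scarce in uncontracted legs could pass the low-count filter through contracted legs alone. The count and the median are therefore not independent of the rise. Egr1, a zinc finger factor gene, averaged 98.2 ± 38.6 CPM in contracted and 6.497 ± 2.62 CPM in uncontracted legs (SD, n = 6 each), and Ppargc1a, the coactivator of mitochondrial biogenesis, averaged 47.9 ± 19.4 CPM in contracted and 10.1 ± 3.21 CPM in uncontracted legs. Of 14 glucocorticoid-responsive genes 13 were tested, of which 4 rose, 3 fell and 6 did not pass (median log2 change 0.43). The metallothionein gene Mt1 rose by 3.15 ± 0.22 on the log2 scale and the muscle ubiquitin ligase gene Trim63 by 1.81 ± 0.20. Without the 4 mismatched libraries the log2 changes of Egr1 (3.95 with them), Ppargc1a (2.27) and Trim63 (1.81) were 3.23, 1.37 and 1.151 and still passed. Sgk1, a kinase gene, fell to 39.4 ± 11.5 CPM in contracted legs, against 66.3 ± 6.67 CPM in uncontracted legs (log2 change -0.76 ± 0.15, edgeR adjusted p = 0.00248), and was -0.43 (adjusted p = 0.416) without the 4 mismatched libraries. Foxo1 changed by -0.70 (edgeR adjusted p = 0.0155) but did not pass without uncontracted Myc 2 (-0.62) or uncontracted control 3 (-0.58). Ddit4 changed by -0.88 (adjusted p = 0.017) but did not pass without uncontracted control 2 (-0.78) or without the 4 mismatched libraries (-0.90).

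The genes whose deviations from the group means were most like those of Dbp over the 12 libraries, among 2878 genes with a mean of at least 20 CPM, were Flna (r = 0.948), Vwa8 (0.932), Smarcd3 (0.916), Mavs (0.88) and Tcp1 (0.866). These 5 are named for likeness alone, with no test. Dbp lay farthest from its group mean in contracted control 1 and 2 (log2 CPM 5.93 and 4.86, with contracted control 3 at 5.52). The r values therefore lean on those 2 libraries, and contracted control 2 is a mismatched library. None of them passed with contraction, with log2 changes of 0.02 for Flna, -0.13 for Vwa8, -0.09 for Smarcd3, -0.12 for Mavs and 0.11 for Tcp1, where that of Dbp was -0.87.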
